A study of Rosa rugosa with 9 samples.

Results

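Allene oxide synthase and 13S-lipoxygenase act one after the other in the synthesis of jasmonates, and 1 gene of each was followed here in roots of Rosa rugosa. The genes are Rru06G051490, described in the deposited table as chloroplastic allene oxide synthase 1, and Rru01G000790, described as chloroplastic linoleate 13S-lipoxygenase 2-1. They are 2 of the 47983 genes listed. Both were picked by identifier with their values in these comparisons already known, so their levels and fold changes are given as a description, with no test. In the deposited annotation both belong to alpha-linolenic acid metabolism. The first carries a cytochrome P450 domain and the KEGG name hydroperoxide dehydratase, and the second the KEGG name lipoxygenase.

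Jasmonates are plant hormones made from alpha-linolenic acid, best known from responses to wounding, insects and some pathogens, and from the control of root growth. In Arabidopsis, a chloroplast 13-lipoxygenase adds oxygen to the freed fatty acid. Allene oxide synthase then turns the hydroperoxide into an unstable allene oxide, and allene oxide cyclase closes the ring to give 12-oxo-phytodienoic acid. A reductase and beta-oxidation in peroxisomes finish jasmonic acid, which is joined to isoleucine to give the form the receptor COI1 binds. Binding leads to breakdown of the JAZ repressors, which frees MYC transcription factors. These in turn activate, among others, genes of the hormone's own synthesis.

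Plants of the genotype Zizhi, 1 year old, were grown in sand in greenhouse pots and given 200 ml of Hoagland's solution per pot once a week for 37 weeks. The groups differed in how much of the phosphorus salt was replaced by humic acid (HA), a mixture of organic acids from decomposed plant matter. CK had 100% of the phosphorus, as 0.092 g of NH4H2PO4, and no humic acid. HA1 had 60% of that phosphorus, from 0.0552 g of salt, and 0.0368 g of humic acid in addition. HA2 had 40%, from 0.0368 g of salt, and 0.0552 g of humic acid. Phosphorus, ammonium and humic acid therefore changed together and their effects cannot be told apart. Each group had 3 RNA-seq libraries of young roots. The labels do not say whether the libraries of a group came from different plants, and p-values cover no more than the spread seen between them, which may be technical.

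Total counts were 33847262 to 42988605 per library. Levels are given as CPM (counts scaled to library size) scaled by the trimmed mean of M values (TMM), and levels of different genes are compared only in the deposited FPKM, which is per length. HA2 replicate 3 stood apart from the other HA2 libraries for many of the genes described here, and CK replicate 3 was the lowest CK library for both chosen genes. Of the 23 genes on a root marker list, 16 were detected, among them SHORT-ROOT and Casparian strip membrane proteins, while Expansin-A7 and some ROOT HAIR DEFECTIVE 3 and SEED AND ROOT HAIR PROTECTIVE PROTEIN genes had 0 counts. Their summed level was 418 to 481 CPM in CK, 460 to 508 CPM in HA1 and 443 to 615 CPM in HA2. The RNA is from whole root tissue, in which more cells of a type and more RNA per cell cannot be told apart.

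Allene oxide synthase Rru06G051490 was higher in every library given humic acid than in any CK library. Its CK level was 194, 220 and 128 CPM in replicates 1 to 3, from 9136, 7778 and 5428 counts. In HA1 it was 625, 1036 and 751 CPM, from 27402, 34427 and 26162 counts. The lowest HA1 library was 2.84 times the highest CK library. Of all genes tested, 22.7% had HA1 libraries that all lay above CK, and 22.3% had them all below.

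In HA2 the same gene stood at 701, 601 and 380 CPM, from 24193, 21667 and 15592 counts. The groups HA2 and CK did not overlap, with the lowest library, HA2 replicate 3, at 1.72 times the highest CK library. A separation of HA2 above CK was found for 11.0% of the genes tested, and a separation below CK for 10.8%. HA2 replicate 1 lay within the range of HA1, and the other two lay below it.

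Group means were 181 ± 47.8 CPM in CK, 804 ± 210 CPM in HA1 and 560 ± 165 CPM in HA2 (SD, n = 3). The highest library of a group was 1.73 times the lowest in CK, 1.66 times in HA1 and 1.85 times in HA2. The fitted log2 fold change was 2.15 ± 0.33 (SE) for HA1 against CK, a 4.45-fold difference. For HA2 against CK it was 1.63 ± 0.32, or 3.1-fold, and for HA2 against HA1 it was -0.52 ± 0.32. The order of the means was thus CK, HA2, HA1, and the neighbours HA2 and HA1 overlapped. The authors' deposited table gives log2 fold changes of 2.16, 1.65 and -0.49 for the 3 comparisons.

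Lipoxygenase Rru01G000790 was at low levels in CK, with larger folds in the humic acid groups than allene oxide synthase and a wider spread. Its CK level was 5.43, 5.21 and 2.56 CPM, from 256, 184 and 109 counts. In HA1 it was 56.1, 42.7 and 85.2 CPM, from 2458, 1418 and 2968 counts. All 3 HA1 libraries were at least 7.85 times the highest CK library.

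The HA2 libraries held 207, 356 and 10.8 CPM of Rru01G000790, from 7134, 12847 and 443 counts. Replicates 1 and 2 exceeded all HA1 libraries, the lower of them by 2.43 times. HA2 replicate 3 lay between the groups, at 1.99 times the highest CK library, while the lowest HA1 library was 3.95 times higher than it. The mean of HA2 replicates 1 and 2 was 26.1 times the level in HA2 replicate 3, against 1.71 times for allene oxide synthase.

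Group means of this lipoxygenase were 4.40 ± 1.60 CPM in CK, 61.3 ± 21.7 CPM in HA1 and 191 ± 173 CPM in HA2 (SD, n = 3). The highest library was 2.12 times the lowest in CK, 2.0 times in HA1 and 33.0 times in HA2. The log2 fold change was 3.80 ± 0.98 (SE) for HA1 against CK, or 13.9-fold. It was 5.44 ± 1.06 for HA2 against CK, or 43.4-fold, and 1.64 ± 0.89 for HA2 against HA1, where the groups overlapped. These SE values rest on 1 estimate of spread shared by the 3 groups. With only the 2 groups compared in the fit, the changes were 3.80 ± 0.39 for HA1 against CK and 5.44 ± 1.18 for HA2 against CK. With CK and HA2 alone and a replicate block, the HA2 change was 4.61 ± 0.90. By their means the groups ran CK, HA1, HA2, a different order from that of allene oxide synthase, but in neither gene were HA1 and HA2 separated. The authors' deposited table lists 3.80, 5.47 and 1.66.

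**Figure D1:**
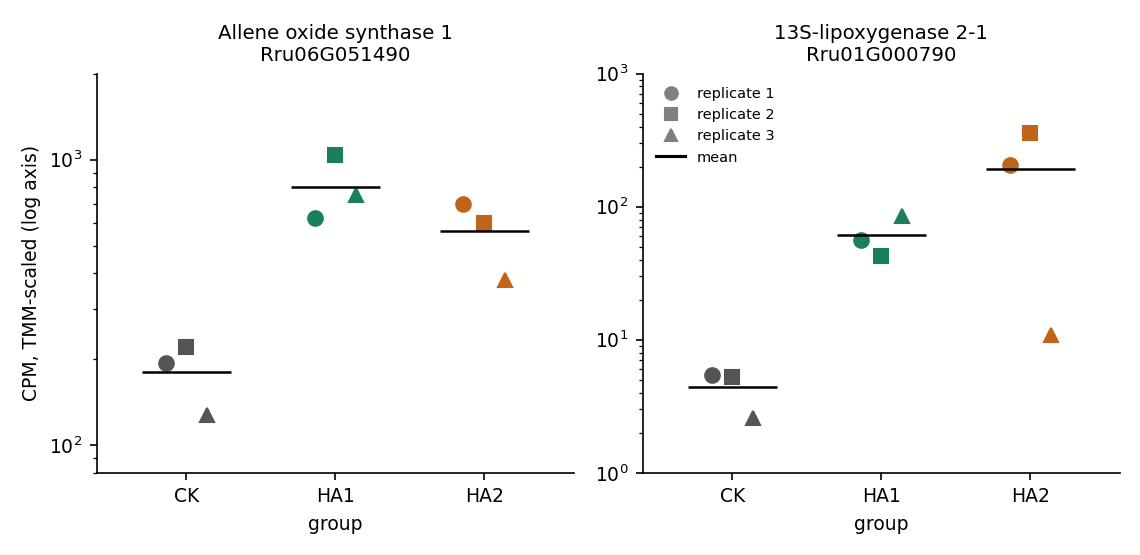
Level of the 2 genes in each of the 9 libraries, in TMM-scaled CPM on a log axis, with points for libraries and bars for group means. All HA1 and HA2 libraries lie above CK for both genes; HA2 replicate 3, at 380 and 10.8 CPM, is the lowest HA2 library in both.

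Without HA2 replicate 3, a fit over the 8 remaining libraries gave log2 fold changes for HA2 against CK of 1.85 for Rru06G051490 and 6.0 for Rru01G000790. For HA2 against HA1 they were -0.31 and 2.2. Both chosen genes kept their direction in each comparison whichever library was left out. For the comparisons with CK this follows from the groups not overlapping, and it is no separate support. All comparisons with CK share the same 3 CK libraries, so HA1 against CK and HA2 against CK are not independent of each other.

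Sums of marker genes of green tissue and of mycorrhizal roots were set beside these levels. The summed level of 37 green-tissue genes, of which 32 were detected and several chlorophyll a-b binding genes were at 0, was 111 to 225 CPM in CK, 80.4 to 113 CPM in HA1 and 49.4 to 145 CPM in HA2, with the 145 CPM in HA2 replicate 3, and CK overlapped with both other groups. A single Rubisco small chain gene, Rru04G014250, made up most of it, with means of 141 CPM in CK, 71.1 CPM in HA1 and 76.8 CPM in HA2. Markers of mycorrhizal roots, 9 genes that were all detected, summed to 1.5 to 2.27 CPM in CK. Their sum was 68.7, 22.2 and 4.65 CPM in HA1 and 36.4, 3.85 and 85.4 CPM in HA2. Rru01G000790 was highest in the HA2 library with the lowest mycorrhizal sum, replicate 2, and lowest in the HA2 library with the highest, replicate 3. The part of these markers in the levels of both genes was not tested.

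Among genes annotated as allene oxide synthase, Rru06G051490 was the main transcript. The table describes 8 such genes, of which 5 passed the filter on low counts, 3 had a mean under 1 FPKM and 1 had no count in any library. Per length, Rru06G051490 held 129, 127 and 86.7 FPKM in CK, 354, 520 and 365 FPKM in HA1 and 370, 305 and 203 FPKM in HA2. It made up 83.4 ± 2.73% of the summed FPKM of the family in CK, 89.5 ± 4.17% in HA1 and 84.1 ± 7.65% in HA2 (SD, n = 3). The summed FPKM itself was 137 ± 26.3, 462 ± 103 and 355 ± 122 in the same order.

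The next gene of the family by level, Rru06G014060, also described as allene oxide synthase 1, stood at 14.3, 5.74 and 10 FPKM in CK. It held 14.2, 25.2 and 28.1 FPKM in HA1 and 53.3, 56.1 and 9.62 FPKM in HA2. HA2 replicate 3 lay within the CK range. Its log2 fold change for HA1 against CK was 1.52 ± 0.61 (adjusted p = 0.102, edgeR), short of the threshold of 0.05. Rru06G013970, described as allene oxide synthase 3, had 5.16, 9.70 and 1.02 FPKM in CK and 9.36, 29.9 and 22.5 FPKM in HA1. In HA2 it had 26.4, 21.3 and 2.73 FPKM, and its HA1 change of 2.23 ± 0.95 missed the threshold as well (edgeR adjusted p = 0.119).

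Rru01G000790, by contrast, held under 10% of the summed 13-lipoxygenase FPKM in every library. The table describes 13 such genes, of which 8 passed the filter, 6 had a mean under 1 FPKM and 1 had no count. Rru01G000790 ranked 3 by mean level, with 1.74, 1.45 and 0.837 FPKM in CK, 15.4, 10.4 and 20.1 FPKM in HA1 and 52.9, 87.8 and 2.80 FPKM in HA2. Its share of the summed FPKM was 0.228 ± 0.0551% in CK and 3.65 ± 1.73% in HA1 (SD, n = 3). In HA2 the share was 7.28, 9.52 and 0.290% in the 3 libraries. The family's summed FPKM was 579 ± 69.5 for CK, 463 ± 146 for HA1 and 872 ± 128 for HA2 (SD, n = 3).

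The main 13-lipoxygenase was Rru02G055710, described as 13S-lipoxygenase 3-1. It held 588, 526 and 449 FPKM in CK, 284, 579 and 350 FPKM in HA1 and 575, 750 and 922 FPKM in HA2. HA2 replicate 3 was its highest library, the opposite of its place for Rru01G000790. The fitted log2 fold change was -0.05 ± 0.35 for HA1 against CK (edgeR adjusted p = 0.925) and 0.80 ± 0.35 for HA2 against CK (adjusted p = 0.234, edgeR). Lipoxygenase 6, Rru04G042100, stood at 29.7, 18.7 and 22.7 FPKM in CK, 17.5, 15.8 and 20.5 FPKM in HA1 and 41.2, 33.5 and 17.9 FPKM in HA2.

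Genes with the same description as Rru01G000790, 13S-lipoxygenase 2-1, did not move alike. Rru01G000750 fell in HA1, from 15.7, 22.6 and 23.5 FPKM in CK to 7.88, 9.31 and 10 FPKM, and was at 21.8, 24.7 and 15.6 FPKM in HA2. Its log2 fold change for HA1 against CK was -0.88 ± 0.26 (edgeR adjusted p = 0.0437), a call kept in 1 of the 9 fits that leave out a library. The ratio of Rru01G000790 to Rru01G000750 in FPKM was 0.111, 0.0643 and 0.0356 in CK and 1.95, 1.11 and 2.01 in HA1. In HA2 it was 2.43, 3.56 and 0.179, so that in HA2 replicate 3 Rru01G000750 remained the more abundant of the pair. Rru01G018510 rose in HA1, with 7.95, 8.54 and 8.61 FPKM in CK and 10.8, 9.89 and 11.3 FPKM in HA1. That change of 0.65 ± 0.17 (edgeR adjusted p = 0.0303) no longer passed without a filter on low counts or with scaling by total counts.

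Another pair with this description had a profile like that of Rru01G000790, and both were singled out after their values were seen. Rru01G000760 stood at 0.136, 0.423 and 0.277 FPKM in CK, 1.91, 1.30 and 6.05 FPKM in HA1 and 19.8, 11.1 and 0.332 FPKM in HA2. Its HA1 change of 3.77 ± 1.23 did not pass (edgeR adjusted p = 0.0575). Rru06G036910 held 0.0964, 0.0736 and 0.0586 FPKM in CK, 0.607, 0.434 and 1.19 FPKM in HA1 and 3.10, 3.40 and 0.034 FPKM in HA2. The deposited annotation gives Rru06G036910 and Rru01G000790 the same closest gene of Rosa chinensis, so reads could have been split between them and their counts are uncertain. The ratio of Rru01G000790 to Rru01G000760 ranged from 2.67 to 12.8 over the libraries, so Rru01G000790 and Rru01G000760 did not keep a fixed proportion. A ratio to Rru06G036910 was not computed, and a split of reads with that gene was not tested.

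**Figure D2:**
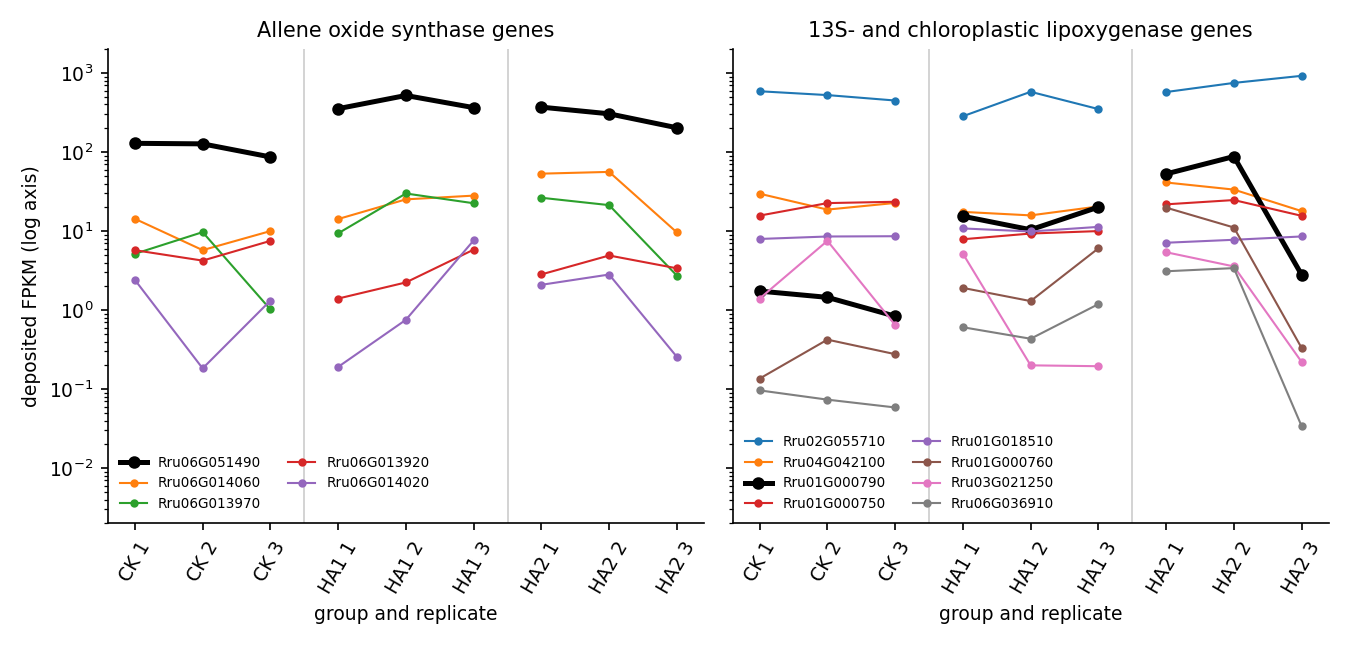
FPKM of the expressed genes annotated as allene oxide synthase and as 13-lipoxygenase in each library, on a log axis, with the 2 chosen genes in black and lines that only join the libraries of a group. Rru06G051490 lies above the other genes of its family in all 9 libraries, and Rru01G000790 moves from under 2 FPKM in CK to 87.8 FPKM in HA2 replicate 2 while Rru02G055710 stays the highest.

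The other genes of jasmonate synthesis, turnover and signalling were taken from a list matched on words in the Swiss-Prot descriptions. The list also takes in other lipoxygenase branches and the Ninja-family AFP genes, so its counts are not of jasmonate genes alone. Of 115 genes besides the chosen pair, 80 passed the filter on low counts. In HA1 against CK, 16 of these rose and 8 fell by edgeR's quasi-likelihood test at an adjusted p under 0.05, and 56 were not called. The 24 calls compare with 21.2% of all genes called either way. The share called higher was 20.0% of the list, beside 10.9% of all genes tested, and 10.3% of all genes tested were called lower. The median log2 fold change was 0.83 for the list and -0.02 for all 25260 genes tested. With the 2 genes that had 0 counts in all CK libraries set at their bound, the list's median was 0.78. At an unadjusted p under 0.05, edgeR gave 43 of the 80, 33 of them higher, beside 38.4% of all genes either way and 19.4% higher. DESeq2 called 40 list genes, 30 of them higher, beside 16.5% of all genes higher and 14.9% lower. The edgeR counts depended on single libraries: without CK replicate 1, 0 genes of the list and 0 of the whole table passed, so each list call given for HA1 is lost without that library. Without CK replicate 3 or HA1 replicate 2, 0 list genes were called higher and 1 lower. Without HA1 replicate 1 there were 2 higher and 1 lower, without HA1 replicate 3 there were 4 and 3, without HA2 replicate 1 there were 11 and 5, and without HA2 replicate 2 there were 10 and 5. Each of the 24 calls was kept in 1 to 8 of the fits that leave out a library. Without HA2 replicate 3, 29 of 83 list genes were called higher and 9 lower, beside 13.9% and 13.2% of all genes.

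In HA2 against CK, 0 list genes passed the same test, with or without a replicate block, beside 0.00396% of all genes called higher. At an unadjusted p under 0.05, edgeR gave 42 of the 80, 40 of them higher, beside 20.7% of all genes either way and 12.3% higher. DESeq2 called 24 list genes higher and 0 lower, beside 6.71% of all genes higher and 2.53% lower. The list's median log2 fold change was 0.89, beside -0.03 for all genes. Of the 80 list genes 62 lay above 0, beside 12083 of all 25260 genes tested. Without HA2 replicate 3, edgeR called 24 of 83 list genes higher and 0 lower, beside 4.7% and 2.41% of all genes.

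HA2 against HA1 also gave 0 list calls by edgeR, with 0.0% of all genes called. In that comparison 15 list genes had an unadjusted p under 0.05, 13 of them higher, beside 16.1% of all genes either way and 7.7% higher. DESeq2 called 3 list genes higher, beside 1.94% of all genes higher and 2.58% lower. The list's median was 0.24, beside 0.03 over all genes. HA2 replicate 3 was the lowest HA2 library in 52 of the 80 list genes, or 65.0%, beside 40.7% of all genes tested. It lay within the CK range in 40 of the 80, or 50.0%, beside 44.3% of all genes.

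**Figure D3:**
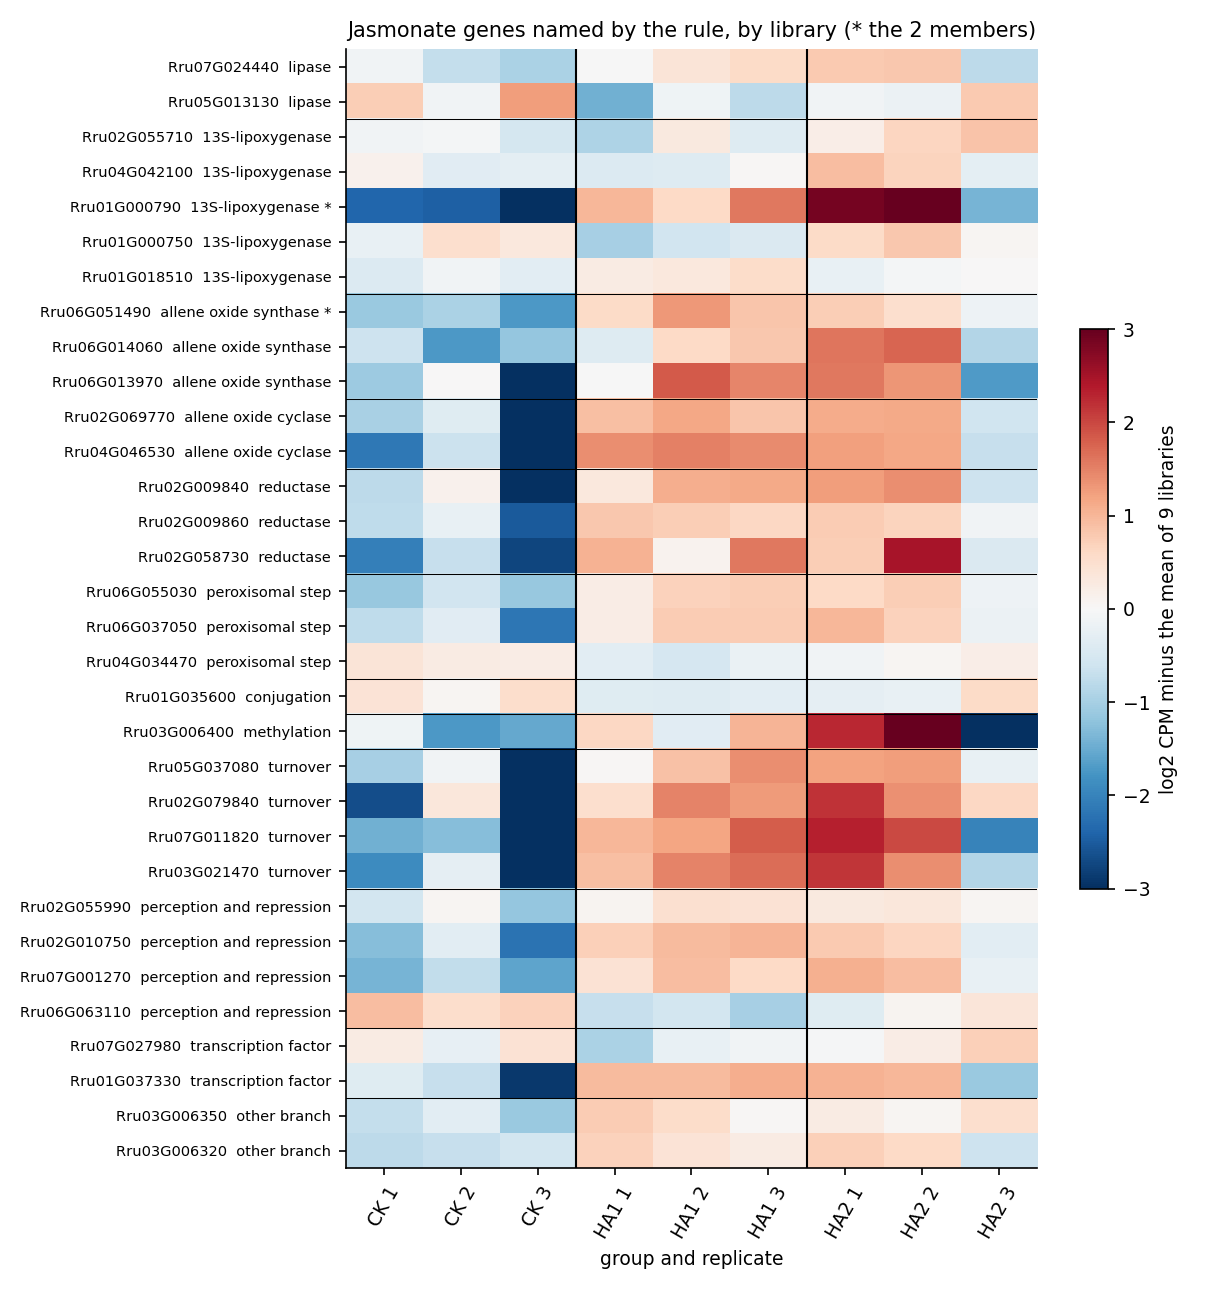
Heat map of centred log2 CPM in each library for 32 genes of jasmonate synthesis, turnover and signalling, among them the 2 chosen genes (starred), ordered by role, with colours limited at 3 log2 units either way. With a prior count of 2, the median over the 80 tested list genes besides that pair was -0.39, -0.31 and -0.91 for CK replicates 1 to 3. It was 0.07, 0.21 and 0.44 for HA1 and 0.66, 0.67 and -0.20 for HA2. The map leaves out the named genes at 0 CPM in any library, which were Rru01G026110, Rru06G052720 and Rru07G008780.

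Before the lipoxygenase step, lipases free the fatty acid. Of 5 tested, 1 rose and 1 fell in HA1, beside 10.9% and 10.3% of all genes. The chloroplast lipase DAD1, Rru01G026110, which in Arabidopsis supplies linolenic acid in anthers, had 0 counts in all CK libraries and 0.433, 0.301 and 0.287 CPM in HA1. It was at least 4.0-fold higher in HA1 than the CK floor of 3 counts per library, 0.085 CPM (edgeR adjusted p = 0.0277). Phospholipase A1-Igamma1, Rru05G013130, fell from 57.7, 32.1 and 82.8 CPM in CK to 12.7, 31.9 and 20.0 CPM in HA1, a log2 change of -1.42 ± 0.44 (adjusted p = 0.0494, edgeR). This call was lost in 7 of the 9 fits that leave out a library, with a replicate block, with RLE size factors and with only the CK and HA1 libraries.

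Allene oxide cyclase, which takes up the product of allene oxide synthase, was tested in 3 genes. Of these, 1 rose in HA1, beside 10.9% of all genes. Rru04G046530 held 88.3, 249 and 40.5 CPM in CK, 1027, 1103 and 1040 CPM in HA1 and 909, 863 and 242 CPM in HA2. Its HA1 libraries lay far above CK, while HA2 replicate 3 fell inside the CK range. The log2 fold change was 3.07 ± 0.70 for HA1 against CK (edgeR adjusted p = 0.0208) and 2.41 ± 0.68 for HA2 against CK. The second cyclase, Rru02G069770, held 379, 578 and 79.6 CPM in CK, 1387, 1652 and 1316 CPM in HA1, and 1608, 1619 and 491 CPM in HA2. Its change of 2.07 ± 0.67 lay just outside the threshold (edgeR adjusted p = 0.0557).

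Of 11 tested genes named 12-oxophytodienoate reductase, 10 had a log2 fold change above 0 in HA1, beside 12436 of all 25260. Beside 10.9% of all genes called higher, 2 of these reductases rose past the threshold. Reductase 3, in Arabidopsis the peroxisomal form that acts in jasmonate synthesis, was given to both. Rru02G009860 stood at 161, 232 and 47.8 CPM in CK and 478, 457 and 419 CPM in HA1, a log2 change of 1.62 ± 0.49 (edgeR adjusted p = 0.0455). That call was lost when only the CK and HA1 libraries were fitted, and was kept in 2 of the 9 fits that leave out a library. Rru02G058730 was at 0.615, 1.56 and 0.376 CPM in CK and 5.18, 2.74 and 7.58 CPM in HA1, a log2 change of 2.61 ± 0.80 (edgeR adjusted p = 0.0472). The most abundant, Rru02G009840, held 478, 904 and 53.5 CPM in CK and 1016, 1753 and 1817 CPM in HA1, and missed the threshold at 1.68 ± 0.85 (edgeR adjusted p = 0.179).

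Peroxisomal steps were split, with 3 of 14 tested genes higher, 2 lower and a median of 0.05 in HA1 against CK. Of all genes, 10.9% were called higher and 10.3% lower. Rru06G055030, 4-coumarate--CoA ligase-like 5, whose Arabidopsis counterpart activates the precursor for beta-oxidation, rose from 154, 227 and 152 CPM in CK to 392, 545 and 562 CPM in HA1. It was at 505, 561 and 304 CPM in HA2, and its HA1 change was 1.49 ± 0.30 (edgeR adjusted p = 0.0150). The thiolase Rru06G037050 rose by 1.51 ± 0.46 (edgeR adjusted p = 0.0458), from 112, 152 and 42.3 CPM to 224, 325 and 326 CPM, a call lost with scaling by total counts. The multifunctional protein MFP2, Rru04G034470, fell from 82.7, 74.3 and 73.5 CPM to 50.3, 44.6 and 54.3 CPM, a log2 change of -0.63 ± 0.16 (edgeR adjusted p = 0.0260). These beta-oxidation enzymes also serve other fatty acids.

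Genes that modify the finished hormone were few. The only conjugating enzyme on the list, JAR6 Rru01G035600, which joins jasmonic acid to amino acids, had a log2 change of -0.70 ± 0.25 in HA1 that did not pass (edgeR adjusted p = 0.0702). A jasmonate O-methyltransferase, Rru06G052720, rose from 0.297, 0.567 and 0 CPM in CK to 3.35, 3.91 and 10.1 CPM in HA1, with 1.48, 1.94 and 0.39 CPM in HA2. The HA1 change was 4.34 ± 1.03 (edgeR adjusted p = 0.0231), a call kept in 4 of the 9 fits that leave out a library. The other methyltransferase tested, Rru03G006400, was the more abundant, with a mean of 8.81 FPKM against 1.31 FPKM. Its HA1 change of 1.47 ± 1.06 did not pass (edgeR adjusted p = 0.338). Enzymes of the CYP94 family oxidise the active conjugate, and all 4 tested had HA1 libraries above CK, a separation found for 22.7% of all genes tested. Beside 10.9% of all genes called higher, 1 of the 4 was called. That gene, CYP94B1 Rru07G011820, stood at 5.22, 5.81 and 1.18 CPM in CK, 28.4, 32.2 and 49.8 CPM in HA1 and 71.6, 55.7 and 3.53 CPM in HA2. Its HA1 change was 3.18 ± 0.95 (edgeR adjusted p = 0.0434), a call kept in 1 of the 9 fits that leave out a library. Its HA2 replicate 3 lay within the CK range, as for the cyclase.

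Perception and repression held 19 tested genes, of which 3 rose, 4 fell and 12 were not called in HA1. The share that rose was 15.8%, near the 10.9% of all genes, and 10.3% of all genes fell. Those that rose were a TIFY 10A gene, a TIFY 6B gene and the Ninja-family protein mc410. TIFY 10A and TIFY 6B are names of JAZ repressors in Arabidopsis. The other TIFY 10A gene, Rru02G055990, was not called, at 0.81 ± 0.32 (edgeR adjusted p = 0.101). Nor was the other TIFY 6B gene, Rru04G053260, at -0.16 ± 0.19 (edgeR adjusted p = 0.562). TIFY 10A Rru02G010750 went from 390, 757 and 201 CPM in CK to 1539, 1823 and 1889 CPM in HA1, with 1622, 1473 and 753 CPM in HA2, an HA1 change of 1.96 ± 0.48 (edgeR adjusted p = 0.0251). TIFY 6B Rru07G001270 went from 32.4, 51.1 and 28.7 CPM to 115, 163 and 130 CPM, with 180, 162 and 73.6 CPM in HA2, an HA1 change of 1.86 ± 0.36 (edgeR adjusted p = 0.0144). Those that fell were TIFY 8, TIFY 4B and the Ninja-family proteins AFP2 and AFP3. The call of TIFY 4B was lost with a replicate block, with RLE size factors and without a filter on low counts. It was kept in 2 of the 9 fits that leave out a library. In Arabidopsis, TIFY 8 and TIFY 4B are not counted among the JAZ proteins, and AFP proteins bind the abscisic acid factor ABI5. TIFY 8 Rru06G063110 fell from 26.0, 19.7 and 22.0 CPM to 8.46, 9.23 and 6.83 CPM, a log2 change of -1.47 ± 0.23 (edgeR adjusted p = 0.0103), a call kept in 8 of the 9 fits that leave out a library.

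Of the 4 tested MYC transcription factors, 0 passed in HA1 by edgeR, beside 21.2% of all genes. At an unadjusted p under 0.05, edgeR gave 2, beside 38.4% of all genes. DESeq2 called 2, beside 16.5% of all genes higher and 14.9% lower. MYC2 Rru01G037330 stood at 104, 82.5 and 17.9 CPM in CK, 258, 257 and 285 CPM in HA1 and 273, 266 and 61.4 CPM in HA2, with an HA1 change of 1.97 ± 0.67 (edgeR adjusted p = 0.0635). The other MYC2 gene, Rru07G027980, had a change of -0.55 ± 0.31 (edgeR adjusted p = 0.223). The 9S-lipoxygenases oxidise the fatty acid at a different carbon and do not lead to jasmonic acid. Of 5 tested, 3 rose in HA1, beside 10.9% of all genes. The 9S-lipoxygenase Rru03G006350 went from 375, 494 and 285 CPM to 1047, 915 and 639 CPM, a log2 change of 1.17 ± 0.28 (edgeR adjusted p = 0.0247). Rru03G006320 went from 181, 193 and 214 CPM to 505, 417 and 370 CPM, at 1.14 ± 0.33 (edgeR adjusted p = 0.0399), a call lost with scaling by total counts. The third was Rru04G016620, at 0.424, 0.595 and 0.047 CPM in CK, 11.5, 9.54 and 13.7 CPM in HA1 and 64.4, 121 and 0.536 CPM in HA2. Its HA1 call (5.03 ± 1.47, edgeR adjusted p = 0.0414) was kept in 1 of the 9 fits that leave out a library.

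**Figure D4:**
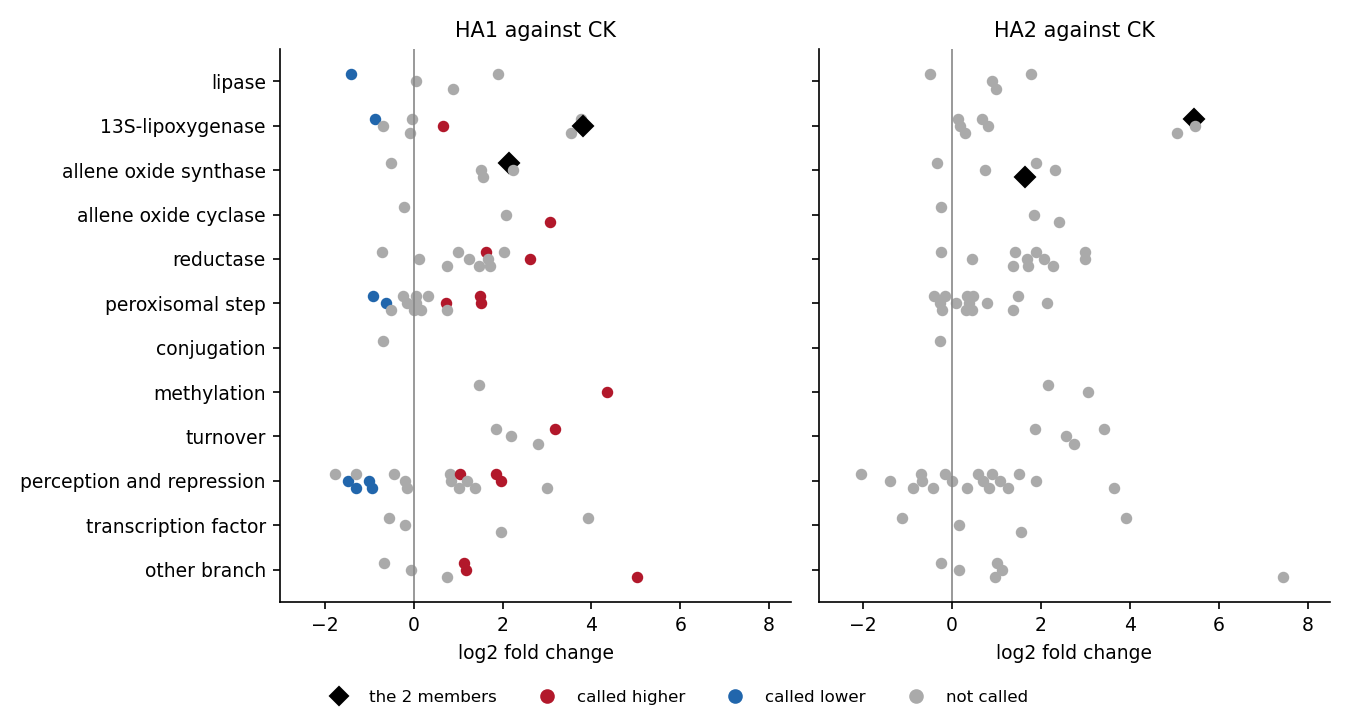
Log2 fold change of each tested list gene by role for HA1 against CK and HA2 against CK, with the 2 chosen genes as diamonds and edgeR calls in colour; the 2 genes with 0 counts in all CK libraries are left out. In HA1 the reductases have a median of 1.46 and the turnover genes 2.49, while the other 13-lipoxygenases centre at -0.05.

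The 2 chosen genes differed in the size of their changes between libraries. In both, the CK libraries and HA2 replicate 3 lay below the gene's mean over the 9 libraries, and the rest lay above it. Likeness was measured over the 9 libraries as the root mean square difference between centred log2 CPM values, among 13931 genes with a description and a mean of at least 1 CPM. This measure also counts differences in the size of the changes, so genes that move in the same direction can rank far apart. Rru01G000790 differed from Rru06G051490 by 1.63 log2 units, rank 12857 from the side of the synthase and rank 523 from the side of the lipoxygenase, whose profile spans a wider range. The genes nearest to Rru06G051490 were PRA1 family protein B4 Rru03G011980 at 0.18, the receptor-like kinase Rru07G056220 at 0.20 and PRA1 family protein B3 Rru01G046810 at 0.21. The disease resistance protein Roq1 Rru04G001430 and the clathrin assembly protein Rru02G026440 followed, both at 0.23. The median over all candidates was 1.05 log2 units. PRA1 family protein B4 held 35.5, 43.7 and 28.6 CPM in CK, 147, 191 and 181 CPM in HA1 and 126, 101 and 71.6 CPM in HA2. TIFY 6B, at rank 16 and 0.27, was the nearest gene of the jasmonate list.

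Nearest to Rru01G000790 were the transposon-derived NewGene_2936 at 0.58 and the GDSL esterase or lipase Rru06G024510 at 0.63. Rru06G036910, which has the same description as Rru01G000790, was also at 0.63. A gene described as a major strawberry allergen, Rru04G023500, followed at 0.64 and the SelT-like Rru03G012760 at 0.67. The median over all candidates was 2.39 log2 units. These genes had HA2 replicates 1 and 2 high and HA2 replicate 3 near CK, as in Rru06G024510 with 13.5, 19.7 and 1.14 CPM in HA2. Among the 100 nearest of the 13931 candidates, 8 were on the jasmonate list for the lipoxygenase and 3 for the synthase. The list held 80 tested genes besides the chosen pair, some of them below the limit of 1 CPM for candidates. How many list genes were candidates was not counted, so the 8 and the 3 have no background share beside them. By Pearson correlation in place of the difference, 0 of the 5 nearest genes stayed for either gene, so the neighbours depend on the measure.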

How the data were processed

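Polyadenylated RNA was sequenced on an Illumina NovaSeq and, per the labels, processed on Biocloud. The authors deposited 1 table that, per its file headers, holds whole-number counts and FPKM values for each gene in each library, beside log2 fold changes from DESeq2. Aligner, counter, build and strand were not given in the sources used here, so overlapping or antisense genes could share reads. Gene names come from the deposited descriptions; 0 identifiers matched the RefSeq table and no sequence or coordinate is printed.

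Counts were fitted with edgeR 4.0.16 (R 4.3.3): filterByExpr, TMM, 1 mean per group over all 9 libraries, quasi-likelihood tests, two-sided, Benjamini-Hochberg adjustment over 25260 genes, threshold 0.05. SE is the size of the log2 fold change divided by the root of the F statistic. The procedure was tested on simulated data. Likeness used log2 CPM with a prior count of 2. Alternatives included DESeq2 1.42.0, other filters and scalings, a replicate block and leaving out each library; scaling by total counts was added after seeing the data. Tables used Python 3.11.15 and pandas 2.3.3, figures matplotlib 3.10.9.

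The members, lists and tests were chosen with earlier results of these data known. Named genes were, per role, the 2 with the highest mean FPKM and the 2 with the lowest p in HA1 against CK, and the 5 nearest profiles per member; the text prints a selection, and other genes it names were chosen after their values were seen. The floor of 3 counts covers counting error only; SD and SE values include the spread between libraries. Deviations from the group mean were correlated over 0.1 for 3 of 3 same-numbered pairs of CK and HA2, from 0.112 to 0.317. Between other numbers 1 of 6 was, at 0.13, and the rule set for pairing was met. For HA1 with CK, 0 of 3 same-numbered and 0 of 6 other pairs were over 0.1. For HA1 with HA2, 0 of 3 same-numbered pairs were, but 4 of 6 other pairs were, up to 0.286. A correlation over 0.1 thus also occurred without a shared number. The labels do not say what a number marks. A replicate block with CK and HA2 alone was added after seeing the data.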

Additional observations from a re-analysis of the deposited data

How the results depend on the processing

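Both chosen genes kept the direction of their fold changes under all alternatives run. Against CK, where the groups did not overlap, leaving out a library could not be expected to turn it. Over the fits that leave out 1 library, Rru06G051490 ranged from 1.92 to 2.31 for HA1 against CK, 1.43 to 1.85 for HA2 against CK and -0.71 to -0.30 for HA2 against HA1. Rru01G000790 ranged from 3.49 to 4.01, 4.63 to 6.0 and 0.83 to 2.2. Scaling by total counts moved the median of all genes to -0.31 for HA1 against CK and -0.33 for HA2 against CK, and the changes of the pair to 1.86 and 1.34 for Rru06G051490 and 3.52 and 5.12 for Rru01G000790. Counts of calls depended far more on the setting. For HA1 against CK, 2761 genes were called higher and 2594 lower. DESeq2 called 4160 higher, and total-count scaling gave 1578 higher and 4647 lower, so the split between directions rests on the scaling. DESeq2 called 30 list genes higher in place of 16. For HA2 against CK, 1 gene was called higher, and 0 with at least 1 CPM in 3 libraries, only the 2 groups compared or total counts; DESeq2 called 1694 higher and 638 lower, with 24 list genes higher. For HA2 against HA1, DESeq2 called 490 higher, 651 lower and 3 list genes higher, where edgeR called 0. The cause of these differences was not tested.

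Leaving out 1 library gave 0 to 3584 genes higher and 0 to 3419 lower in HA1 against CK, and 0 to 29 and 0 to 9 list genes. Without CK replicate 1 there were 0 calls, and without CK replicate 3 there were 374 higher and 292 lower. Without HA1 replicates 1, 2 and 3 in turn there were 1041, 565 and 1240 higher and 634, 258 and 1182 lower, with 2, 0 and 4 list genes higher. In HA2 against CK the range was 0 to 1212 higher, 0 to 622 lower and 0 to 24 list genes; without CK replicate 2 there were 1022 higher and 399 lower, with 6 list genes higher. The share of its family taken by Rru06G051490 ranged from 81.8 to 84.4% in CK, 87.5 to 91.7% in HA1 and 79.8 to 87.0% in HA2, and with hydroperoxide lyases counted in the family it was 63.6, 79.5 and 70.1%. The share taken by Rru01G000790 ranged from 0.207 to 0.259%, 3.08 to 4.64% and 3.79 to 8.4%. Of the 5 nearest genes, 3 for Rru06G051490 and 2 for Rru01G000790 were shared without HA2 replicate 3.

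With a replicate block, 0 genes were called higher in HA2 against CK, over all libraries or over CK and HA2 alone, where 1 was called without it. It moved no other count of calls over all genes or the list by more than 1.5 times, but 3 list calls in HA1 were lost with it, those of Rru05G013130, Rru04G002160 and the acyl-coenzyme A oxidase Rru07G023820. Other list calls were gained, so that in HA1 against CK 19 list genes were called higher and 6 lower with the block, in place of 16 and 8. Same-numbered correlations of HA1 were -0.002 to 0.068 with CK and -0.297 to 0.001 with HA2.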
